A study of Mus musculus with 22 samples.

Results

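Blood of 5 SCA3 mice was compared with blood of 6 wild-type mice at 9 months of age, over all genes in the count table. These 11 samples were chosen by the genotype and age in their labels, out of 22 blood samples in all, and the other 11 were taken at 17.5 months. The SCA3 mice were of the MJD84.2 line, which carries the complete human ATXN3 gene with an expanded CAG repeat under its own promoter on a C57BL/6 background, and the transgenic mice were hemizygous. The wild-type mice were C57BL/6 mice without the transgene. All mice were male and untreated, had been tested on the beam walk, and gave blood from a tail cut. The labels give ages of 40 to 42 weeks for the wild-type and 39 to 42 weeks for the SCA3 mice. Each of the 11 samples came from a different mouse, so the spread within a group is the spread between animals. The question put to these samples was whether the transgene goes with altered gene expression in blood before the later time point.

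Spinocerebellar ataxia type 3 is caused by a CAG expansion in ATXN3, whose product, ataxin-3, is a deubiquitinase of the Josephin family. Ubiquitin is made as a precursor that is cut after translation, for instance as a string of ubiquitin units from Ubb or joined to a ribosomal protein from Rps27a. Ataxin-3 binds the segregase p97, encoded by Vcp, and edits ubiquitin chains on proteins on their way to the proteasome. Most RNA in whole blood comes from reticulocytes, which lose their organelles through ubiquitin-dependent degradation and autophagy as they mature, with smaller shares from platelets and white cells.

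The labelled tissue was checked against its markers. Alas2, the erythroid enzyme of heme synthesis, alone took 3.52% to 8.97% of the counts of a sample. Because the table holds only genes averaging at least 4 CPM, weakly expressed markers could not be checked, and 29 of 42 listed red cell genes and 9 of 15 listed eosinophil and basophil markers were measured. Library totals ran from 21898928 to 24847039 counts in wild-type and from 21922250 to 35615901 in SCA3 mice, and the means differed (two-sided exact permutation test, p = 0.0195). Transcripts, weighted by their counts, had a mean GC content of 50.11% in wild-type and 50.04% in SCA3 mice (p = 0.723 from the same exact test). Wild-type mice had an RNA integrity number of 7.3 ± 0.39 (SD, n = 6), against 6.75 ± 0.51 (SD, n = 4) for the SCA3 mice, where mouse 5 had no value (exact permutation test, p = 0.138). The human transgene's transcript was not measured as such, since counts were made on mouse genes. How reads of human ATXN3 were divided between mouse Atxn3 and unaligned reads is not given in the sources used here, so no gene in the table checks the genotype.

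A pair of libraries stood apart from their groups. In several of the genes below wild-type mouse 2 was nearest to the SCA3 mice, and SCA3 mouse 1 to the wild-type mice. The plainest case was Polr2a, the largest subunit of RNA polymerase II, whose corrected log2 expression was 6.67 to 6.84 in 5 wild-type mice and 7.38 in wild-type mouse 2, against 7.50 to 7.89 in 4 SCA3 mice and 6.53 in SCA3 mouse 1. In the 23 genes whose groups did not overlap, Cox6c and Bag1 among them, both libraries lay with their own group by definition. Those genes therefore say nothing about the labels. Whether these 2 samples were exchanged was not tested, and an exchange would alter every fold change below. Both libraries were kept under their labels, and for the gene lists the count of members under an unadjusted p of 0.05 is also given without each of them where it moved by over 1.5 times.

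Expression is given throughout as log2 values corrected for GC content, on the scale of log2 CPM (counts scaled to the size of each library). A fold change is the SCA3 minus the wild-type coefficient of an edgeR quasi-likelihood fit to all 22 samples, and calls needed p-values under 0.05 after Benjamini-Hochberg adjustment across the whole table. Of 9850 genes tested, 0 were called at 9 months (0%), and the smallest adjusted p was 0.730. DESeq2 also called 0 genes, as did edgeR's likelihood ratio test and every other fit tried, so no gene can be said to have changed at this age. At an unadjusted p under 0.05 there were 657 genes, 6.67% of those tested, with 361 higher in SCA3 mice (3.66%) and 296 lower (3.01%). DESeq2 gave 535 such genes. The count was 1256 without wild-type mouse 2 and 1628 without SCA3 mouse 1. It was 411 without wild-type mouse 3, 390 without wild-type mouse 5, 369 without SCA3 mouse 2 and 420 without SCA3 mouse 3. Without any other mouse it was 529 to 773. Fold changes were small, with 11 genes past 1 on the log2 scale in either direction and a median of 0.01. Over all genes 5076 fold changes were positive and 4774 negative. Members of a list are not independent of each other, so the counts of signs below are a description. In 7 genes every SCA3 mouse was above every wild-type mouse (0.0711%), and in 16 every SCA3 mouse was below (0.162%). Of the 462 ways to split the 11 samples into these group sizes, 1 gives each outcome, a fraction of 0.00216. Both percentages lie below that fraction, so lack of overlap is given below only as a description. The 23 genes of both directions became 180 without wild-type mouse 2, 329 without SCA3 mouse 1 and 24 to 329 over all fits without 1 mouse. Groups of fewer mice overlap less easily. Genes are named and counted below at the unadjusted p, as a description beside these shares. The count of a list without 1 mouse is to be read beside the count over all genes in that same fit.

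The libraries kept no strand, so reads from bases that a gene shares with a gene on the other strand cannot be assigned to one of them. Beside the pairs named below, this holds for Rps27a, Psd3, 4933434E20Rik, Ptpn14, Chil5, Ube4b, Syvn1, Vcp, Ube2w, Psma4, Ddit3, Rpl5, Ppox, Cpox, Epb41, Rnf123, Map1lc3b, Cd247, Irf7, Tef, Jun, Jund, Srebf1, Qdpr and Tspan2. Ovgp1, Ifi203, Cd247, Rpl5, Rpl24, Ier3ip1 and Srebf1 share bases with a gene on the same strand.

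Of the genes that encode ubiquitin, Rps27a and Ubb are described here, and neither passed the unadjusted p of 0.05 with all mice in the fit. Rps27a, which fuses ubiquitin to a small subunit protein, stood at 3.07 to 3.79 in wild-type and 3.11 to 3.64 in SCA3 mice, with a log2 fold change of -0.18 ± 0.14 (SE, unadjusted p = 0.206). With transcript length in the correction this was 0.00067. Rps27a had 176 to 380 counts per sample, and only reads with a single alignment were counted, so that its level is uncertain. Ubb lay at 9.92, 9.50, 9.92, 10.33, 9.53 and 10.35 in wild-type mice, against 9.84, 9.86, 9.73, 8.56 and 8.95 in SCA3 mice. SCA3 mice 4 and 5 were thus below all others and the remaining SCA3 mice lay among the wild-types, and the log2 fold change was -0.49 ± 0.25 (SE, unadjusted p = 0.0638). Ubb was under 0.05 without wild-type mouse 2 (-0.56), without SCA3 mouse 1 (-0.59), without wild-type mouse 5 (-0.55) and without SCA3 mouse 2 (-0.60).

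**Figure D1:**
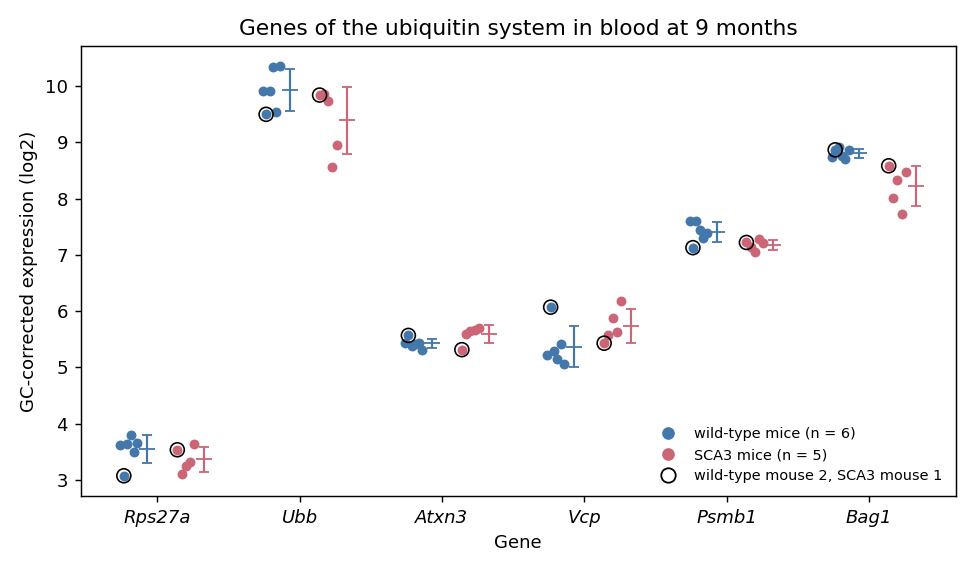
GC-corrected log2 expression (y axis) of 6 genes of the ubiquitin system (x axis) in each mouse at 9 months; points are mice, dashes with bars are the mean ± SD, and rings mark wild-type mouse 2 and SCA3 mouse 1. For Bag1 the wild-type mice sit between 8.71 and 8.91 and the SCA3 mice between 7.72 and 8.58, while the groups overlap in the other genes.

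Mouse Atxn3, on chromosome 12 (GRCm38 chr12:101918901-101958246), was at 5.43, 5.57, 5.37, 5.42, 5.44 and 5.32 in wild-type mice. SCA3 mice had 5.32, 5.60, 5.65, 5.67 and 5.71. All SCA3 mice except mouse 1 were above every wild-type mouse, while SCA3 mouse 1 was level with the lowest wild-type. The log2 fold change was 0.17 ± 0.07 (SE, unadjusted p = 0.0323, adjusted p = 0.730), and at 17.5 months it was 0.02. Values at the 2 ages share mice, since 5 wild-type mice and 2 of the SCA3 mice gave blood at both. The 23 measured genes for Josephin deubiquitinases, p97 and partners of ataxin-3 had a median log2 fold change of 0.05, with Atxn3 as the only member under an unadjusted p of 0.05. With the RNA integrity number as a covariate, in a fit without SCA3 mouse 5, 0 members were higher and 1 was lower. Atxn3, positive in every fit, was therefore not under 0.05 there. With transcript length in the correction Atxn3 was at 0.14 (unadjusted p = 0.0549) and the count was 0. Without wild-type mouse 2 this count was 4, without wild-type mouse 4 it was 2, without SCA3 mouse 1 it was 6, and without wild-type mouse 3 or SCA3 mouse 3 it was 0. Next came Ube4b, a ubiquitin chain elongation factor that ataxin-3 and p97 bind (0.25), Syvn1, the ligase of endoplasmic reticulum-associated degradation (0.28), and Vcp itself (0.35), with unadjusted p of 0.0520, 0.0758 and 0.0789. For Vcp, wild-type mouse 2 had 6.07 and the other wild-type mice 5.06 to 5.41, against 5.43 to 6.18 in SCA3 mice.

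Enzymes that attach or remove ubiquitin showed little difference. Among 47 activating and conjugating enzymes and other deubiquitinases, 2 were higher at the unadjusted p and 0 lower, with a median of -0.02. These 2 were Tnfaip3, which edits ubiquitin in NF-κB signalling (0.31 ± 0.11, SE), and Uba6, an alternative ubiquitin-activating enzyme (0.31 ± 0.12, SE). Tnfaip3 stood at 4.53 to 5.05 in wild-type and 4.91 to 5.50 in SCA3 mice. The conjugating enzymes Ube2w (-0.25) and Ube2a (-0.15) came next and did not reach this p. The count was 8 without wild-type mouse 2, 7 without SCA3 mouse 1, 1 without wild-type mouse 5 or SCA3 mouse 3, and 0 without SCA3 mouse 2. Over all 9850 genes it was 1256 without wild-type mouse 2 and 1628 without SCA3 mouse 1.

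Subunits of the proteasome lay slightly below 0, with a median of -0.08 over 48 genes, of which 37 were negative. Only Psmb1, a subunit of the catalytic core, was under an unadjusted p of 0.05 (-0.24 ± 0.11, SE), at 7.13 to 7.60 in wild-type and 7.05 to 7.28 in SCA3 mice. The core subunits Psma4 (-0.21) and Psmb3 (-0.19) and the regulatory subunit Psmd6 (-0.15) followed. With transcript length in the correction, the median became 0.04 and no subunit was under 0.05. The count was 4 without wild-type mouse 2, 7 without SCA3 mouse 1, and 0 without wild-type mouse 1 or 3 or SCA3 mouse 2 or 3. Over all 9850 genes it was 1256 without wild-type mouse 2 and 1628 without SCA3 mouse 1.

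Among 35 chaperones and co-chaperones 1 was higher and 1 lower, and the median was 0.07. Bag1, a nucleotide exchange factor of Hsp70 that also carries a ubiquitin-like domain, was at 8.71 to 8.91 in wild-type mice. SCA3 mice had 8.58, 8.02, 8.33, 7.72 and 8.48, all below the lowest wild-type. Its log2 fold change was -0.55 ± 0.19 (SE, unadjusted p = 0.00827, adjusted p = 0.730). Hsp90ab1, the constitutive cytosolic Hsp90, was at 9.25 to 9.77 in wild-type mice and at 9.11, 9.83, 9.60, 11.18 and 10.03 in SCA3 mice, with a log2 fold change of 0.60 ± 0.28 (SE) that was 0.15 without SCA3 mouse 4. Ddit3, a transcription factor of the unfolded protein response (-0.27), and Hyou1, a chaperone of the endoplasmic reticulum (0.17), did not reach an unadjusted p of 0.05. With transcript length in the correction Hsp90ab1 was at 0.54 (unadjusted p = 0.0519) and Bag1 was the only member under 0.05. Without SCA3 mouse 1 the list held 8 members under 0.05, and without wild-type mouse 2, 4 or 5 it held 1.

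Among the genes reported here, the 10 lower ones with the smallest unadjusted p were Stk19, Lsm6, Cox6c, Acyp2, Hbq1a, Hspb11, 4933434E20Rik, Uqcr10, Immp1l and Ier3ip1. In Cox6c, a subunit of cytochrome c oxidase, the wild-type mice had 8.70, 8.40, 8.84, 8.89, 8.84 and 8.71, and the SCA3 mice 8.28, 7.69, 8.07, 7.25 and 7.63. The groups did not overlap, and the log2 fold change was -0.91 ± 0.23 (SE, unadjusted p = 0.000617). Cox6c overlaps Vps13b on the opposite strand. Hbq1a, an alpha-like theta globin gene, was at 8.08, 7.23, 7.73, 7.96, 7.73 and 7.16 in wild-type mice against 7.05, 6.43, 6.86, 6.26 and 6.71 in SCA3 mice, again without overlap. The log2 fold change was -0.997 ± 0.26 (SE, unadjusted p = 0.000889). Lsm6, a member of the ring of proteins that binds U6 small nuclear RNA, was at 5.89 to 6.21 in wild-type and 5.41 to 5.84 in SCA3 mice (-0.38 ± 0.09, SE). Hspb11, a subunit of the intraflagellar transport complex, was at 2.82 to 3.24 against 2.36 to 2.70, also without overlap (-0.45 ± 0.12, SE). With transcript length in the correction the log2 fold change of Hspb11 was -0.21 (quasi-likelihood test, unadjusted p = 0.0749).

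Acyp2, an acylphosphatase, had the largest lower fold change among genes under an unadjusted p of 0.05. Wild-type mice had 3.80, 3.79, 4.39, 2.34, 4.54 and 2.14, and SCA3 mice 1.83, 2.00, 2.17, 1.39 and 1.58. The wild-type values fell in 2 ranges, with mice 4 and 6 next to the SCA3 mice and the other 4 mice above 3.7, and the log2 fold change was -1.94 ± 0.50 (SE, unadjusted p = 0.000874, adjusted p = 0.730). Wild-type mice 4 and 6 were the lowest of their group at 17.5 months too, at 2.08 and 1.99, while wild-type mice 1, 2 and 5 were then at 3.74, 4.95 and 2.62. SCA3 mice had 2.25 to 3.22 at that age, and the log2 fold change was -0.81.

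The remaining lower genes differed less. Stk19, a factor of transcription-coupled DNA repair, was at 3.95 in wild-type mouse 2, at 4.19 to 4.29 in the other wild-type mice and at 3.66 to 4.04 in SCA3 mice (-0.37 ± 0.09, SE). Uqcr10, a subunit of respiratory complex III, was at 5.46 to 6.15 against 5.03 to 5.79 (-0.62 ± 0.17, SE). Immp1l, a peptidase of the inner mitochondrial membrane, was at 3.36 to 3.89 against 2.95 to 3.43 (-0.43 ± 0.12, SE). The uncharacterised 4933434E20Rik was at 5.59 to 6.21 against 5.51 to 5.82 (-0.33 ± 0.09, SE). Ier3ip1, a small protein of the endoplasmic reticulum membrane, was at 5.09 to 5.63 against 4.74 to 5.18 (-0.32 ± 0.09, SE).

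**Figure D2:**
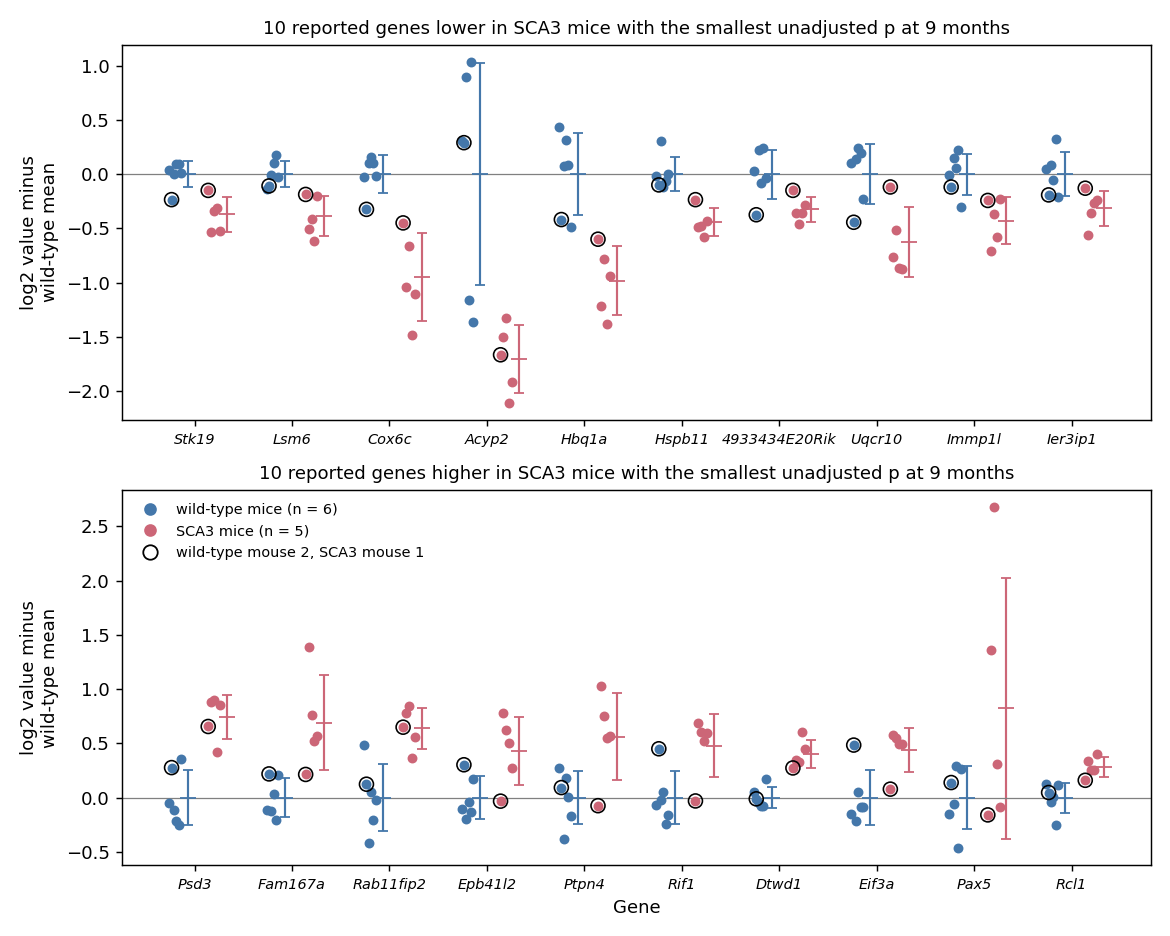
Corrected log2 expression minus the wild-type mean (y axis) of the 10 lower and the 10 higher reported genes (x axis) with the smallest unadjusted p at 9 months; points are mice, dashes with bars the mean ± SD of a group, rings wild-type mouse 2 and SCA3 mouse 1. In Acyp2 the wild-type mice split into 2 ranges, and in Pax5 2 SCA3 mice stand above all others.

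The 10 higher genes with the smallest unadjusted p were Psd3, Fam167a, Rab11fip2, Epb41l2, Ptpn4, Rif1, Dtwd1, Eif3a, Pax5 and Rcl1. Psd3, an exchange factor for the small GTPase Arf6, was at 2.75, 3.08, 2.69, 2.59, 2.55 and 3.16 in wild-type mice and 3.46, 3.69, 3.70, 3.22 and 3.66 in SCA3 mice. The groups did not overlap, and the log2 fold change was 0.74 ± 0.17 (SE, unadjusted p = 0.000343). Dtwd1, a transfer RNA modifying enzyme, at 1.86 to 2.11 against 2.21 to 2.54, and Rcl1, a factor of 18S ribosomal RNA processing, at 3.56 to 3.94 against 3.97 to 4.21, did not overlap either. Their log2 fold changes were 0.41 ± 0.11 (SE) and 0.28 ± 0.08 (SE). Rab11fip2, a Rab11 effector of recycling endosomes, was at 2.60 to 3.50 against 3.39 to 3.86 (0.62 ± 0.15, SE). Fam167a was at 1.84 to 2.26 against 2.26 to 3.44, where SCA3 mouse 1 was the lowest of its group (0.74 ± 0.18, SE).

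In the other higher genes of this set SCA3 mouse 1 was the lowest SCA3 mouse. Rif1, which acts in replication timing and double-strand break repair, was at 4.20 to 4.50 in wild-type mice except mouse 2, at 4.90. SCA3 mice had 4.98 to 5.14 except mouse 1, at 4.42. Its log2 fold change was 0.48 ± 0.13 (SE), and 0.58 without wild-type mouse 2 or 0.59 without SCA3 mouse 1. Eif3a, a core subunit of translation initiation factor eIF3, was likewise at 6.11 to 6.38 with wild-type mouse 2 at 6.81, against 6.82 to 6.91 with SCA3 mouse 1 at 6.41 (0.43 ± 0.12, SE). Epb41l2, a membrane skeleton protein of the 4.1 family, was at 4.86 to 5.36 against 5.03 to 5.84 (0.45 ± 0.12, SE), and the tyrosine phosphatase Ptpn4 at 1.73 to 2.38 against 2.03 to 3.13 (0.60 ± 0.16, SE).

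Pax5, the transcription factor that commits cells to the B lineage, had the largest higher fold change among genes under an unadjusted p of 0.05. Wild-type mice had 2.67, 2.96, 2.76, 3.11, 2.36 and 3.09, and SCA3 mice 2.67, 4.19, 5.50, 3.14 and 2.74. SCA3 mice 2 and 3 were above all others and the remaining SCA3 mice were level with the wild-type mice. The log2 fold change was 1.25 ± 0.36 (SE, unadjusted p = 0.00246), and the exact permutation test over the 11 samples gave p = 0.123. Without SCA3 mouse 3 it was 0.48. At 17.5 months Pax5 was lower in all 5 SCA3 mice, at 2.18 to 2.51, than in the 6 wild-type mice, at 2.89 to 3.53, and SCA3 mice 2 and 3 were not sampled at that age. Pax5 overlaps 5730488B01Rik and Gm12462 on the opposite strand.

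Other large fold changes were mostly those of genes with widely spread values. Selenbp1, a selenium-binding protein, was at 3.11 to 4.59 in wild-type and 3.48 to 5.25 in SCA3 mice (0.90 ± 0.38, SE), with wild-type mouse 2 highest in its group. The phosphatase Ptpn14 was at 1.36 to 2.49 against 1.63 to 3.45 (0.76 ± 0.31, SE). Chil5, a chitinase-like protein, and Ovgp1, a glycoprotein of the same family, lie next to each other on chromosome 3 (GRCm38 chr3:106016919-106032814 and chr3:105973711-105987423) and had log2 fold changes of -1.43 ± 0.51 (SE) and -1.10 ± 0.39 (SE). Chil5 ran from 0.78 to 4.42 in wild-type and from 1.18 to 2.42 in SCA3 mice, and Ovgp1 from 2.58 to 5.11 and from 2.20 to 3.42. For both the lowest wild-type value was that of mouse 2 and the highest that of mouse 5, without which Ovgp1 had a log2 fold change of -0.67. Adamdec1, a secreted metalloprotease, was at 2.48 to 4.18 against 0.52 to 3.47 (-1.17 ± 0.51, SE), and Agrn, the proteoglycan agrin, at 1.81 to 4.64 against 1.63 to 3.19 (-1.13 ± 0.41, SE).

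Most of the 10 leading lower genes have short transcripts, and most of the 10 leading higher genes long ones. Over the 9806 genes with a transcript length, the log2 fold change had a Spearman correlation of 0.38 with length, given as a description across genes of the same 11 libraries. The median log2 fold change was -0.14 in the shortest decile of genes, with transcripts of up to 1235 bases, and 0.11 in the longest decile, from 6408 bases. Adding length to the correction brought this correlation to -0.02, and with it 274 genes were higher (2.78%) and 244 lower (2.48%) at an unadjusted p under 0.05. Taken mouse by mouse, the mean log2 value of the shortest decile minus that of the longest was set relative to the wild-type mean. It was 0.04, -0.34, 0.17, -0.13, 0.26 and -0.0050 in wild-type mice. It was 0.17, -0.57, -0.34, -0.32 and -0.29 in SCA3 mice. SCA3 mice 2 to 5 were thus together with wild-type mouse 2, and SCA3 mouse 1 with the other wild-type mice. The difference of -0.25 between the median fold changes of these deciles became -0.31 without wild-type mouse 2 and -0.35 without SCA3 mouse 1. At 17.5 months the order was the opposite, with medians of 0.10 in the shortest and -0.08 in the longest decile. The correlation of log2 fold change with GC content was 0.01 after and -0.07 before GC correction. Transcript length cannot be told apart here from what short-transcript genes have in common, and a list below is also given with length in the correction where this altered its count of members under 0.05. With the RNA integrity number as a covariate, in a fit without SCA3 mouse 5, the medians of 5 lists changed sign: red cell genes to 0.05, reticulocyte maturation to 0.07, monocyte markers to 0.20, chaperones to -0.04 and the genes that the study names for blood to -0.0030. In that fit 4 T cell markers and 3 proteasome subunits were lower at the unadjusted p. Of the reticulocyte maturation genes 1 was then higher and 0 lower, and of the study's brain genes 1 was higher and 1 lower.

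**Figure D3:**
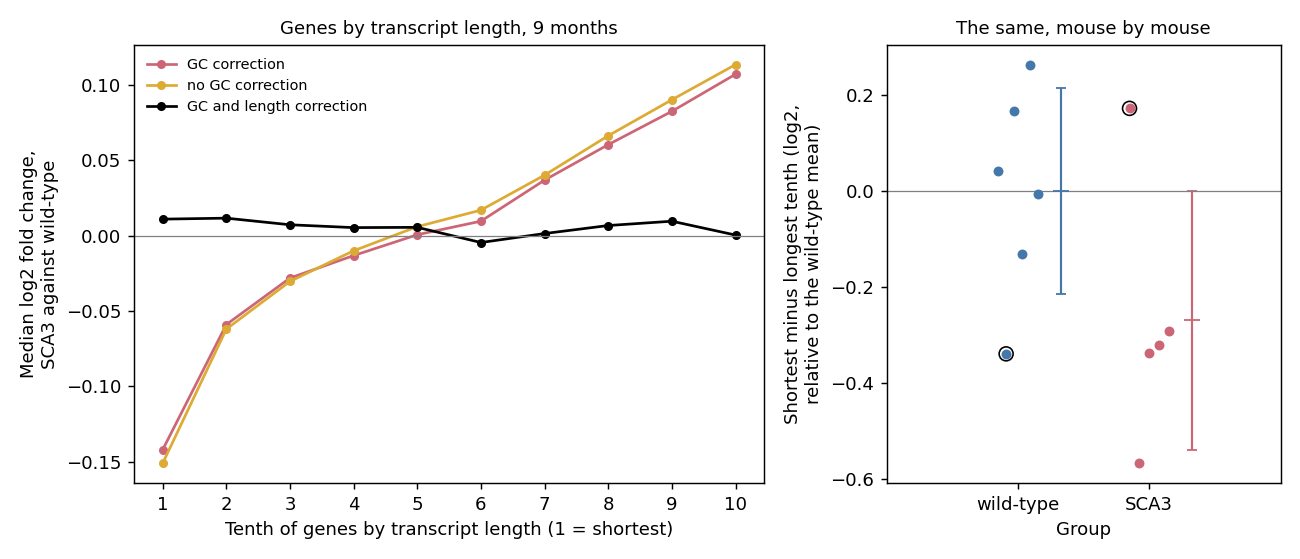
Left, median log2 fold change of SCA3 against wild-type mice (y axis) under 3 corrections. Genes are in 10 equal groups from the shortest to the longest transcripts (x axis). Right, the mean log2 value of the shortest minus that of the longest decile in each mouse, relative to the wild-type mean. Dashes with bars are the mean ± SD of a group, and rings mark wild-type mouse 2 and SCA3 mouse 1. The GC-corrected medians run from -0.14 to 0.11 and are near 0 once length is in the correction.

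Subunits of the mitochondrial respiratory chain and ATP synthase were the list with the most members under an unadjusted p of 0.05. Of 76 measured subunits 20 were lower and 0 higher, against 3.01% and 3.66% of all genes, and 66 of the 76 fold changes were negative, with a median of -0.21. The median transcript length of the list was 863 bases against 3010 over all genes. With length in the correction the median was -0.05, with 6 members lower and 2 higher. With the RNA integrity number as a covariate it was -0.20, with 13 lower, in a fit that leaves out SCA3 mouse 5. Without SCA3 mouse 1 there were 38 members under 0.05, and without SCA3 mouse 4 there were 10. The members came from several complexes. Beside Cox6c and Uqcr10, they included Ndufa1, a subunit of complex I, at 6.96 to 7.85 in wild-type and 6.29 to 7.26 in SCA3 mice (-0.69 ± 0.22, SE). Atp5j2, a subunit of ATP synthase, was at 6.58 to 7.10 in wild-type mice, at 6.22 to 6.28 in SCA3 mice 2 to 5 and at 6.88 in SCA3 mouse 1 (-0.47 ± 0.15, SE). With length in the correction, Cox6c had a log2 fold change of -0.72, Uqcr10 of -0.41, Ndufa1 of -0.48 and Atp5j2 of -0.33, each still under an unadjusted p of 0.05. At 17.5 months the median of the list was 0.03.

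Cytosolic ribosomal proteins, whose messages are also short with a median of 835 bases, had a median log2 fold change of -0.15 over 75 genes, 65 of them negative. At the unadjusted p 6 were lower and 0 higher. Without length in the correction these were Rpl5 (-0.42), Rpl41 (-0.64), Rpl17 (-0.45), Rpl24 (-0.42), Rpl10 (-0.27) and Rpl36a (-0.35), of which Rpl10 and Rpl36a lay outside the rule for named genes. With it, the median was -0.0016, with 2 lower and 1 higher. Rpl41, the smallest ribosomal protein, stood at 10.54 to 11.06 in wild-type mice and at 10.33, 9.67, 10.28, 9.55 and 10.79 in SCA3 mice. Rpl24 was at 2.20 to 2.73 in wild-type and 1.78 to 2.18 in SCA3 mice and was the 1 member of the list whose groups did not overlap. Ribosomal protein genes have many processed pseudogenes, and only reads with a single alignment were counted, so that their levels are uncertain. The count of members under 0.05 was 13 without wild-type mouse 2, where the median was -0.23, 10 without SCA3 mouse 1 and 3 without SCA3 mouse 4. Over all 9850 genes it was 1256 without wild-type mouse 2 and 1628 without SCA3 mouse 1. The median of the ribosomal list at 17.5 months was 0.10.

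**Figure D4:**
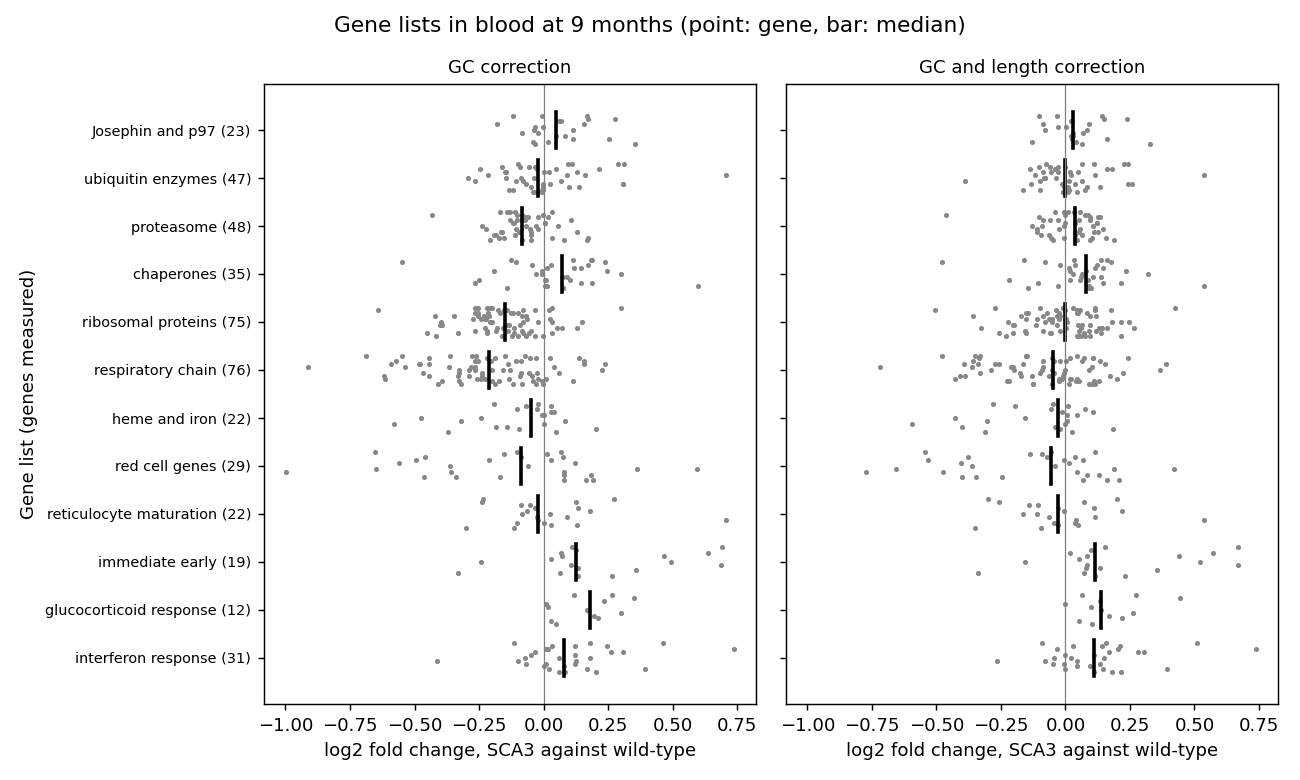
Log2 fold change of SCA3 against wild-type mice (x axis) of every measured member (points) of 12 gene lists (y axis), with black bars for the median, under GC correction (left) and GC and length correction (right). The median of the respiratory chain list is -0.21 on the left and -0.05 on the right, and that of the ribosomal proteins -0.15 and -0.0016.

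Genes of red cell precursors and of the red cell membrane were divided. Of 29 measured members 3 were lower and 0 higher at the unadjusted p, with a median of -0.09. The lower ones were Hbq1a, the embryonic beta-like globin gene Hbb-y (-0.65 ± 0.29, SE) and Prdx2, the abundant red cell peroxiredoxin (-0.65 ± 0.31, SE). Hbb-y was at 2.01 to 2.89 in wild-type and 0.88 to 2.65 in SCA3 mice. Prdx2 was at 10.33 to 11.05 in wild-type mice and at 10.61, 10.55, 10.33, 8.64 and 9.56 in SCA3 mice, where SCA3 mice 4 and 5 were below all others, as they were for Ubb. Prdx2 overlaps Junb and Rnaseh2a on the opposite strand, and globin messages had been depleted from the RNA, so that globin levels also depend on that step. Epb41, the membrane skeleton protein 4.1R, had the opposite sign (0.59 ± 0.42, SE, unadjusted p = 0.175, and 1.11 without wild-type mouse 2) and a wide spread. Its values were 10.43 to 11.004 in 5 wild-type mice, 12.54 in wild-type mouse 2, 12.14 to 12.23 in SCA3 mice 2, 3 and 5, and 11.08 and 10.61 in SCA3 mice 1 and 4. As an average of all 29 markers, the red cell level was 6.41 to 7.07 in wild-type mice and 5.54 to 7.02 in SCA3 mice. Alas2 took 5.85% to 8.97% of counts in wild-type and 3.52% to 7.05% in SCA3 mice, with SCA3 mouse 4 lowest in both measures. With the RNA integrity number as a covariate the median was 0.05 and 1 member was lower, and with length in the correction 2 were, Hbb-y being at -0.54 (unadjusted p = 0.0589). The median was -0.19 without SCA3 mouse 1. The count of 3 was 1 without wild-type mouse 4 or 5 or SCA3 mouse 4 or 5.

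Of 22 genes of heme synthesis and iron uptake 2 were lower and 0 higher, and the median was -0.05. These were Ppox, protoporphyrinogen oxidase, at 5.50 to 5.94 in wild-type and 4.92 to 5.61 in SCA3 mice (-0.47 ± 0.14, SE), and Tfrc, the transferrin receptor, at 6.08 to 7.16 against 5.74 to 6.31 (-0.58 ± 0.23, SE). Both kept an unadjusted p under 0.05 with length in the correction. The count was 4 without wild-type mouse 2 or SCA3 mouse 1 and 1 without wild-type mouse 3. Uros, uroporphyrinogen III synthase (-0.32), and Cpox, coproporphyrinogen oxidase (0.20), did not reach it. Among 22 genes of reticulocyte maturation 1 was lower, Rnf123, a ubiquitin ligase, at 6.39 to 6.92 against 5.79 to 6.46 (-0.30 ± 0.13, SE), and the median was -0.02. The count was 2 without wild-type mouse 2. Ube2o, the ubiquitin conjugating enzyme that clears ribosomes from maturing red cells, ran from 8.47 to 10.05 in wild-type and from 7.89 to 10.65 in SCA3 mice (0.71 ± 0.45, SE, unadjusted p = 0.131), and without SCA3 mouse 3 its log2 fold change was 0.37. The autophagy gene Map1lc3b (-0.24) and its regulator Foxo3 (0.27) did not reach an unadjusted p of 0.05.

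Whole blood mixes cell types, and fewer cells of a type cannot be told apart from less RNA per cell. Each type's markers are therefore given as their mean corrected log2 level and as their summed CPM. Neutrophil markers ran from 5.39 to 7.59 in wild-type and from 5.74 to 7.87 in SCA3 mice, and from 3187 to 14076 and from 3276 to 14835 CPM. None of their 15 genes was under an unadjusted p of 0.05, and the alarmins S100a9 (-0.01 ± 0.46, SE) and S100a8 (0.31 ± 0.45, SE) had large errors. Monocyte markers, 6.03 to 7.51 and 6.35 to 7.46 (4865 to 13890 and 4279 to 14929 CPM), and platelet markers, 6.69 to 8.41 and 7.74 to 8.05 (4738 to 12132 and 7891 to 11806), also had 0 of 17 members each under this p. Examples were the lysozyme Lyz2 (-0.04) and the perforin-like Mpeg1 (0.04) for monocytes, and the chemokine Ppbp (-0.13) and the integrin Itga2b (0.35) for platelets. Without wild-type mouse 2 there were 1 monocyte and 2 platelet markers under 0.05, with medians of 0.23 and 0.29, and without SCA3 mouse 1 there were 1 and 0, with medians of -0.14 and -0.01. Natural killer markers lay at 4.70 to 5.55 and 4.63 to 5.29 (392 to 826 and 386 to 833 CPM), with 0 of 13 members under 0.05, the protease Gzma at -0.44 and the receptor Il2rb at 0.39. This count was 2 without SCA3 mouse 1, and 1 with length in the correction.

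Markers of eosinophils and basophils had the lowest median of all lists, -0.78 over 9 genes, with 7 negative. Under an unadjusted p of 0.05 there were 4, all lower: Ccr3, the eotaxin receptor, Alox15, the 15-lipoxygenase, Siglecf, a sialic acid-binding receptor of eosinophils, and Fcer1a, the alpha chain of the high-affinity IgE receptor. Ccr3 was at 5.88, 4.33, 6.44, 6.66, 6.57 and 6.08 in wild-type mice and 4.43, 5.95, 5.60, 5.05 and 3.61 in SCA3 mice (-1.01 ± 0.42, SE). The groups overlapped through wild-type mouse 2 and SCA3 mouse 2. Alox15 had 4.61, 3.03, 4.96, 5.51, 5.24 and 5.20 against 3.45, 4.67, 4.63, 3.66 and 2.65 (-0.94 ± 0.42, SE). Fcer1a ran from 2.40 to 5.16 and from 2.73 to 3.84 (-1.02 ± 0.47, SE), and Siglecf from 3.39 to 4.83 and from 3.36 to 3.92 (-0.58 ± 0.27, SE). The mean level was 3.40 to 5.08 in wild-type and 3.40 to 4.36 in SCA3 mice, where wild-type mice 1 and 2 were as low as the lowest SCA3 mice. In summed CPM this was 92.5 to 373 against 105 to 239. With length in the correction the median was -0.71 and 3 markers were lower, Fcer1a being at -0.80 (unadjusted p = 0.117). At 17.5 months the median was -0.71. The count of 4 became 7 without wild-type mouse 1 and 0 without wild-type mouse 4, without wild-type mouse 5, without SCA3 mouse 1 or without SCA3 mouse 5. It was 2 without wild-type mouse 3 or 6 and without SCA3 mouse 3 or 4.

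All 17 B cell markers had positive fold changes, with a median of 0.24, but only Pax5 was under an unadjusted p of 0.05. The next were Fcmr, the IgM receptor (0.44), the lineage factor Ebf1 (0.45) and the transcription factor Spib (0.37), with unadjusted p of 0.0588, 0.0634 and 0.0808. For Fcmr the wild-type mice had 7.95 to 8.77 and the SCA3 mice 7.85, 9.17, 9.06, 8.95 and 8.67, so SCA3 mouse 1 was the lowest of all. The mean level was 7.23 to 8.15 in wild-type and 7.07 to 8.27 in SCA3 mice, and the sums were 3880 to 7878 and 3379 to 8212 CPM. The markers of a cell type rise and fall together, so 17 signs are not 17 observations. Without 1 mouse the median ran from 0.11 to 0.39. With length in the correction it was 0.24 and 3 members were higher, Pax5, Fcmr (0.49) and Vpreb3 (0.42), the last chosen after its values were seen. The count was 6 without wild-type mouse 6, 5 without SCA3 mouse 1, 2 without wild-type mouse 2 or SCA3 mouse 5, and 0 without SCA3 mouse 3. At 17.5 months the median was -0.40.

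T cell markers lay at 5.46 to 6.50 and 5.54 to 6.57 (1225 to 2138 and 1374 to 2776 CPM). Of 19 members 1 was lower, the adaptor Trat1, at 2.51 to 4.12 against 2.24 to 3.00 (-0.68 ± 0.29, SE). The T cell receptor chains Cd3g (-0.41) and Cd247 (-0.36) and the co-receptor Cd4 (-0.41) did not reach an unadjusted p of 0.05. Over all 19 members the median was only -0.04, with 6 positive and 13 negative. Without SCA3 mouse 5, the highest of its group in Cd3g and Cd4, there were 5 members under 0.05, and there were 4 without wild-type mouse 6, 2 without wild-type mouse 2, and 0 without wild-type mouse 4 or SCA3 mouse 1, 2 or 3. Genes of dividing cells lay at 4.35 to 4.68 and 4.11 to 4.83 (666 to 816 and 505 to 986 CPM). Of 15 members 1 was higher, Mcm3, a subunit of the replicative helicase, at 3.89 to 4.03 in wild-type mice apart from mouse 2, at 4.55, and 4.48 to 4.64 in SCA3 mice apart from mouse 1, at 3.88 (0.39 ± 0.16, SE). The helicase subunits Mcm5 (0.25), Mcm4 (0.24) and Mcm2 (0.18) did not reach an unadjusted p of 0.05. Over all 15 members the median was 0.09, with 9 positive and 6 negative. The count under 0.05 ran from 0 to 3 without 1 mouse, with 3 without SCA3 mouse 1, 2 without wild-type mouse 2, and 0 without wild-type mouse 3, 4 or 5 or SCA3 mouse 2, 3 or 5.

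**Figure D5:**
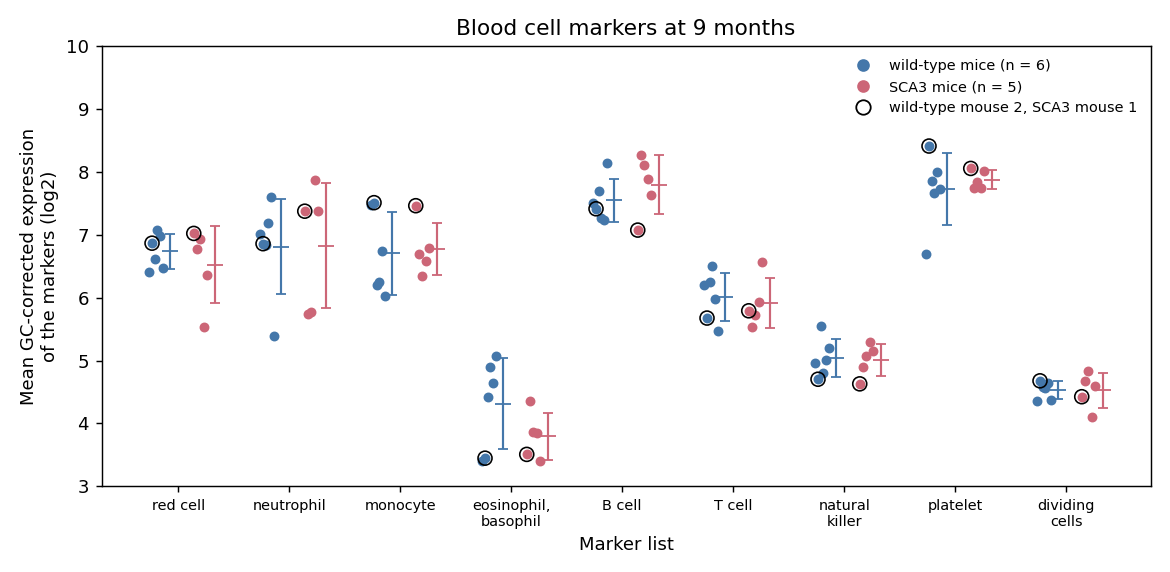
Mean GC-corrected log2 expression (y axis) of the markers of 8 blood cell types and of dividing cells (x axis) in each mouse at 9 months; points are mice, dashes with bars the mean ± SD of a group, rings wild-type mouse 2 and SCA3 mouse 1. In every list the groups overlap, and the eosinophil and basophil markers run from 3.40 to 5.08 in wild-type and from 3.40 to 4.36 in SCA3 mice.

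Immediate early genes, which cells switch on within minutes of a stimulus, were mostly positive, with 17 of 19 above 0 and a median of 0.13. At the unadjusted p 4 were higher and 0 lower. Myc was at 3.84 to 4.45 in wild-type mice and at 4.00, 4.43, 4.83, 4.91 and 5.26 in SCA3 mice (0.50 ± 0.16, SE). Jun was at 2.85 to 3.68 against 3.49 to 4.17 (0.47 ± 0.17, SE), and Egr3 at 2.19 to 3.41 against 2.67 to 3.99 (0.64 ± 0.24, SE). Jund was at 5.91 to 6.86 in wild-type mice and at 7.51, 6.25, 8.17, 6.78 and 6.20 in SCA3 mice, with a log2 fold change of 0.69 ± 0.27 (SE) that was 0.29 without SCA3 mouse 3. With length in the correction the count stayed at 4 and the median was 0.11. Without SCA3 mouse 3 the count was 2. The time of day and the handling before each tail cut are not given in the sources used here.

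Of 12 glucocorticoid response genes all were positive, with a median of 0.18, where 5076 of all 9850 genes were positive. At the unadjusted p 1 was higher, against 3.66% of all genes. This was Nfkbia, the inhibitor of NF-κB, at 5.45 to 6.06 against 5.69 to 6.43 (0.35 ± 0.16, SE). Per1 (0.23), Errfi1 (0.17) and Tsc22d3 (0.26) did not reach an unadjusted p of 0.05. The count of 1 became 2 without wild-type mouse 1 and 0 without wild-type mouse 2, 3, 5 or 6 or SCA3 mouse 2 or 4. The 11 clock genes had a median of 0.15 with none under 0.05, among them Nr1d2 (0.11) and Tef (-0.09). Of 31 interferon response genes 1 was higher, the transcription factor Irf7, at 6.70 to 8.16 in wild-type mice and at 9.23, 8.68, 7.40, 7.96 and 7.91 in SCA3 mice (0.74 ± 0.29, SE, and 0.42 without SCA3 mouse 1). The median of the list was 0.08, and -0.12 without SCA3 mouse 1, where 0 members were under 0.05. The RNA sensor Ddx58 (0.18), the exonuclease Isg20 (-0.41) and Ifi203 (0.20) did not reach this p. Cholesterol synthesis genes had a median of 0.03 over 21 genes with none under 0.05. Without wild-type mouse 2 there was 1 member under 0.05 and the median was 0.05, and without SCA3 mouse 1 there were 3 and it was 0.07. In that list the regulator Srebf2 was at 0.26 and Srebf1, a regulator of lipid synthesis, at 0.11.

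The study lists genes for the brain of these mice, and 11 of them were measured in blood. At 9 months 2 were higher and 0 lower, and 1 or 2 without any 1 mouse. Polr2a had a log2 fold change of 0.63 ± 0.22 (SE, unadjusted p = 0.00770, adjusted p = 0.730), and Erbb2ip, a scaffold protein that binds the receptor Erbb2, had 0.23 ± 0.11 (SE). With length in the correction they were at 0.49 and 0.18, and only Polr2a was under 0.05. The study's brain data are from 17.5 months. There Polr2a was higher and Erbb2ip lower in SCA3 mice, so the sign of Erbb2ip in blood was the opposite. Erbb2ip showed the same crossing of libraries as Polr2a, at 6.85 to 7.04 in wild-type mice with mouse 2 at 7.46, against 7.26 to 7.34 in SCA3 mice with mouse 1 at 6.93. Without wild-type mouse 2 the log2 fold change of Polr2a was 0.76, and without SCA3 mouse 1 it was 0.80. At 17.5 months it was -0.54. Qdpr, dihydropteridine reductase (-0.16), and the tetraspanin Tspan2 (-0.15) did not reach an unadjusted p of 0.05.

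The 14 genes described here that the study names for blood were chosen on samples of this series, so that their values are no independent evidence. They had log2 fold changes of -0.30 to 0.29 at 9 months, 9 of them positive, and 0 were called. At the unadjusted p there was 1, Phf13, a chromatin-binding protein, at 2.72 to 3.42 in wild-type and 3.35 to 3.64 in SCA3 mice (0.29 ± 0.12, SE, unadjusted p = 0.0220). Tnfsf14, a ligand of the tumour necrosis factor superfamily, was at 4.67 to 6.05 against 4.58 to 5.80 (-0.30 ± 0.23, SE), and Tob1, an antiproliferative protein, at 4.12 to 4.78 against 4.44 to 4.90 (0.21 ± 0.17, SE). Reck, a membrane-anchored inhibitor of matrix metalloproteases, was at 1.70 to 2.62 against 1.91 to 3.05 (0.25 ± 0.22, SE, and -0.0050 without SCA3 mouse 5). At 17.5 months the log2 fold changes were 0.51 for Phf13, 0.78 for Tnfsf14, 0.84 for Tob1 and 1.04 for Reck. For Tnfsf14, whose sign differed between the ages, the difference between them was 1.09 (unadjusted p = 0.00344, adjusted p = 0.219). The difference between the genotype contrasts of the ages, tested for every gene in the same fit, gave 0 calls (0%) and 1469 genes at an unadjusted p under 0.05 (14.9%).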

How the data were processed

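Groups were taken from genotype and age in the sample labels. The deposited values are raw counts per gene, as whole numbers. To make them the authors depleted globin messages, sequenced poly-A libraries that kept no strand, aligned reads to GRCm38 with STAR 2.3.0e, kept reads with a single alignment, counted RefSeq genes with HTSeq 0.6.1 and dropped genes averaging under 4 CPM. All 22 columns were used and 0 were left out. No 2 columns were identical. Over all genes together, replicates of 9 months differed far beyond counting error (chi-square per degree of freedom 55.7 to 545 over 25 pairs). Genes with many counts weigh most in this measure. For genes with few counts, such as Rpl24 with 91 to 136 per sample, counting error can also add to the spread.

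Transcript GC content and length came from GENCODE M21 (GRCm38) for 99.6% of genes, and the others were given the median. For GC correction the method of the CQN package was rewritten: a natural spline with 5 knots for GC content was fitted per sample by regression at the 0.5 quantile (quantreg 6.1) to genes averaging 50 counts or more, then quantile normalization was applied. These offsets entered edgeR 4.0.16 (R 4.3.3), with 1 coefficient per group of genotype and age, the robust quasi-likelihood test and Benjamini-Hochberg adjustment over 9850 genes. Two-sided exact permutation tests compared single values over samples. Gene lists and marker levels got counts, medians and ranges, without a test. The code was tested on simulated counts.

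Alternatives were no GC correction, GC and length correction, the likelihood ratio test that the study used, DESeq2 1.42.0, at least 10 counts in every sample, the samples of 9 months alone, RNA integrity number or age in weeks as a covariate, mouse as a replicate block (limma 3.58.1), and leaving out each mouse. Figures used Python 3.11.15 and matplotlib 3.10.9.

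The samples, genes and lists were chosen with earlier results of these data known. Some genes are not reported here, and the rule was applied to the others. Named genes are Rps27a, Ubb, Atxn3, the 10 higher and 10 lower with the smallest unadjusted p, the 5 higher and 5 lower with the largest fold change among those with an unadjusted p under 0.05, and in each list up to 4 members with the smallest p, or the 2 most expressed where none was under 0.05. Bag1, Polr2a and others enter through their lists. Alas2, Vpreb3, Rpl10 and Rpl36a were named once their values had been seen. The study's 5′-3′ bias and its brain, qPCR and plasma data were not analysed here.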

Additional observations from a re-analysis of the deposited data

Results flagged for a closer look

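In groups of 5 or 6 mice, a lowest or highest value was set apart when its gap to the nearest other value was large for the group's range (Dixon's test at 95%). Of 242 groups examined 27 had such a value, where chance gives 12.1. The marker genes of 1 cell type are not independent of each other, so these counts are a description.

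Wild-type mouse 2 was apart in 11 genes. It was higher than the other wild-type mice in Selenbp1 (4.59 against 3.11 to 3.64), Vcp (6.07 against 5.06 to 5.41), Epb41 (12.54 against 10.43 to 11.004), Ube2o (10.05 against 8.47 to 9.03), Mcm3 (4.55 against 3.89 to 4.03), Polr2a (7.38 against 6.67 to 6.84) and Erbb2ip (7.46 against 6.85 to 7.04). It was lower in Stk19 (3.95 against 4.19 to 4.29), Uros (3.52 against 3.87 to 4.04), Ccr3 (4.33 against 5.88 to 6.66) and Alox15 (3.03 against 4.61 to 5.51).

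SCA3 mouse 1 was apart in 10 genes. It was lower than the other SCA3 mice in Atxn3 (5.32 against 5.60 to 5.71), Rif1 (4.42 against 4.98 to 5.14), Eif3a (6.41 against 6.82 to 6.91), Hyou1 (5.11 against 5.54 to 5.63), Mcm3 (3.88 against 4.48 to 4.64), Mcm4 (4.54 against 5.21 to 5.33), Mcm5 (4.16 against 4.74 to 4.96), Polr2a (6.53 against 7.50 to 7.89) and Erbb2ip (6.93 against 7.26 to 7.34). It was higher in Atp5j2 (6.88 against 6.22 to 6.28).

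The other 6 values were scattered over mice. Hspb11 was 3.24 in wild-type mouse 3 against 2.82 to 2.94, and Rnf123 was 6.92 in wild-type mouse 4 against 6.39 to 6.55. The mean level of neutrophil markers was 5.39 in wild-type mouse 6 against 6.84 to 7.59. Among SCA3 mice, Psmd6 was 5.15 in mouse 2 against 5.47 to 5.58, Map1lc3b was 8.85 in mouse 4 against 9.33 to 9.43, and Cd4 was 5.88 in mouse 5 against 4.82 to 5.07.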

How the results depend on the processing

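No gene was called under any alternative, so no call was lost or gained. Genes at an unadjusted p under 0.05 numbered 657, 435 with the samples of 9 months alone and 369 to 1628 without 1 mouse. Genes whose groups do not overlap numbered 23, 14 without GC correction and 24 to 329 without 1 mouse. Subunits of the respiratory chain under 0.05 numbered 20, 8 with GC and length correction (10 with the likelihood ratio test), 13 with the integrity number as a covariate and 10 to 38 without 1 mouse; their median of -0.21 became -0.049 in both fits with length. Ribosomal proteins numbered 6, 3 with GC and length correction (2 with the likelihood ratio test), 2 with the integrity number and 3 to 13 without 1 mouse. The shortest minus the longest decile of transcripts went from -0.25 to 0.011 in both fits with length, which the correction removes by construction. Eosinophil and basophil markers numbered 4, 2 with the integrity number and 0 to 7 without 1 mouse, and immediate early genes 4 and 2 to 5 without 1 mouse. The level of dividing cell genes differed by -0.00 as a mean and by 0.21 as a median of members. The cause of these changes was not tested.

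The fit with mouse as a replicate block found 596 genes under 0.05 (consensus correlation 0.31), 2 eosinophil and basophil markers, and Pax5 at 0.79. Pairing links ages only, since no mouse is in both genotypes.

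Signs changed in 27 values of single genes, none under an unadjusted p of 0.05. With GC and length correction Rps27a became 0.00067, Psmb3 0.038, S100a9 0.17 and Ppbp 0.030, and the last 3 had these values in the likelihood ratio test too. With the integrity number S100a9 became 0.13 and Lyz2 0.13, and with age in weeks S100a8 became -0.077. Without 1 mouse, S100a9 ran from -0.51 to 0.29, S100a8 from -0.20 to 0.54, Lyz2 from -0.29 to 0.21, Mpeg1 from -0.11 to 0.23, Tef from -0.16 to 0.051 and Reck from -0.0050 to 0.39.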
